A study of Mus musculus with 11 samples.

Results

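The genes described here are the nuclear-encoded subunits of the mitochondrial respiratory chain and ATP synthase, in RNA from organoids of mouse small intestine. They were chosen by symbol: protein-coding genes whose symbols start with Ndufa, Ndufb, Ndufc, Ndufs, Ndufv, Uqcr, Cox4, Cox5, Cox6, Cox7, Cox8 or Atp5, together with Sdha, Sdhb, Sdhc and Sdhd. No measured value entered the choice. The rule found 84 of the 37310 genes in the count tables, and it set aside 20 look-alikes, which were Ndufa4l2, 8 assembly factors and 11 pseudogenes. Complex I had 36 of the 84 subunits, complex II had 4, complex III had 8, complex IV had 19 and complex V, the ATP synthase, had 17. Ndufa4 was counted with complex IV, the enzyme it is now known to belong to.

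The organoids were grown from intestinal crypts of mice carrying Lgr5-EGFP-IRES-creERT2, a reporter and inducible Cre placed in the stem cell gene Lgr5, and every library shares that genotype. Crypts were embedded in Matrigel with IntestiCult medium and the cultures were split every 7 days. Total RNA of 11 cultures was sequenced: 5 early libraries (passages 2, 3 and 4 of mouse_283 and passages 2 and 4 of mouse_285) and 6 late libraries (passages 11, 12 and 13 of each). The study asked how age and time in culture change methylation and expression. Its mice were 4 and 24 months old, but the labels used here tie neither age to mouse_283 or mouse_285. Each animal gave 1 line of serial passages, so the spread behind each p-value is the spread between passages of 2 cultures and not between animals.

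The respiratory chain passes electrons from NADH (complex I) and succinate (complex II) through coenzyme Q to complex III, and by cytochrome c to complex IV, where oxygen is reduced. Complexes I, III and IV pump protons across the inner mitochondrial membrane, and complex V uses the returning protons to make ATP. Most subunits are encoded in the nucleus and imported, while a few core subunits are encoded in mitochondrial DNA. In the gut epithelium, oxidative metabolism is known to differ between dividing crypt cells and differentiated enterocytes.

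Gene reads per library ranged from 15114132 to 28949911, and levels are given as CPM (gene reads scaled to a common library size) after TMM scaling, a correction for differences in RNA composition. The epithelial markers summed to between 5737 and 11739 CPM per library, and 7 of 8 fibroblast and smooth muscle markers stayed under 0.5 CPM in every library. Summed enterocyte markers lay between 2936 and 3833 CPM in early libraries and between 1688 and 2492 CPM in late ones. Enteroendocrine markers lay between 380.4 and 479 CPM early and 649 and 898 CPM late. Taken singly, Alpi, Fabp1, Fabp2, Sis and Chga of these lists overlapped between the stages, and the other markers did not. In bulk RNA, fewer cells of a type and less RNA per cell cannot be told apart. In mouse_283, passages 3 and 4 differed from the other 9 libraries in base composition: expression over all genes rose by 1.02 and 0.81 log2 units per 10 percentage points of GC content, against -0.43 to 0.20 elsewhere. Log2 changes of the named subunits between late and early passages are therefore also given from a fit of the other 9 libraries. That fit keeps passage 2 as the only early library of mouse_283. This library had 11.7% of reads in no feature, against 3.77 to 6.64% in the other libraries, and the lowest median subunit level (-0.42, below). The fit is therefore an alternative and not a cleaner estimate.

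The promoters of the subunit genes are shown before the values, among them those of complex IV isoform pairs that differ in level. A relation between promoter motifs and the movement of the subunits across libraries was not tested. RefSeq promoters on GRCm38.p6, running from 250 bases before to 50 bases after the start site, were matched for 69 of the 84 genes, which gave 74 promoters. Members with no matched promoter included Atp5a1, Atp5mpl, Cox4i1, Cox4i2, Cox6a2, Cox6c, Cox8c, Ndufa2, Ndufb9, Ndufs1, Sdhc, Uqcrb, Uqcrc2 and Uqcrq. In each sequence below, the 250 bases before the start site read 5′ to 3′ along the gene's strand, and capitals mark matches to the 4 motifs searched on both strands. Cox7a1, at chr7:30183921-30184170 (plus strand), is the muscle-type isoform that passed the test of passage. Cox7a2, at chr9:79759854-79760103 (minus strand), is its widely expressed counterpart.
Cox7a1: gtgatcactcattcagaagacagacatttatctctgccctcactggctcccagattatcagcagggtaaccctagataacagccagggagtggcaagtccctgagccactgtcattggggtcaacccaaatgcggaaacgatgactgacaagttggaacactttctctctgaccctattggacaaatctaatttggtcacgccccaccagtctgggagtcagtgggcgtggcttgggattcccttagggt
Cox7a2: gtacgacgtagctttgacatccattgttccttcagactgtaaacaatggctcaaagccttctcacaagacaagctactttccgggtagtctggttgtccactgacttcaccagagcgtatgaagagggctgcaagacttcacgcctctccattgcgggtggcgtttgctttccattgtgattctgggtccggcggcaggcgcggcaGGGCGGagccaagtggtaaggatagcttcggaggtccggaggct
The Cox7a1 stretch held none of the motifs, and that of Cox7a2 held 1 match to the Sp1 motif.

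Cox6b2, at chr7:4753095-4753344 (minus strand), is the testis-type isoform of the subunit that the widely expressed Cox6b1, at chr7:30626115-30626364 (minus strand), supplies in most tissues.
Cox6b2: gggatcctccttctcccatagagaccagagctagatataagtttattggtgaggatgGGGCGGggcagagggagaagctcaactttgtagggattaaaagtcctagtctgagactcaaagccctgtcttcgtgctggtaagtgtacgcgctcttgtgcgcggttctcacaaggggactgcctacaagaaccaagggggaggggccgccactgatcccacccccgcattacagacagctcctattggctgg
Cox6b1: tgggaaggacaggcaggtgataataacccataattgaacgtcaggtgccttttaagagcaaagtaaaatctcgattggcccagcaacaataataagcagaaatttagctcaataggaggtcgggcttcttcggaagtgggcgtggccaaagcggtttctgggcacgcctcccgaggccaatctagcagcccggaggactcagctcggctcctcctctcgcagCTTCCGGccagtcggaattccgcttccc
Cox6b2 held 1 Sp1 match and Cox6b1 held 1 ETS match. Cox6a1, at chr5:115348959-115349208 (minus strand), and Sdhb, at chr4:140961021-140961270 (plus strand), were the members whose promoters held at least 3 of the 4 motifs over the full window.
Cox6a1: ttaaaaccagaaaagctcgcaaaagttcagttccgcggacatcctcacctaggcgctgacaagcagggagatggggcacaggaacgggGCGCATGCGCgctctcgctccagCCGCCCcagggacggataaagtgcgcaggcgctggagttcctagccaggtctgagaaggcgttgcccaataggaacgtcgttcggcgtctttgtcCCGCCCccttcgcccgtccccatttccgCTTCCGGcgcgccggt
Sdhb: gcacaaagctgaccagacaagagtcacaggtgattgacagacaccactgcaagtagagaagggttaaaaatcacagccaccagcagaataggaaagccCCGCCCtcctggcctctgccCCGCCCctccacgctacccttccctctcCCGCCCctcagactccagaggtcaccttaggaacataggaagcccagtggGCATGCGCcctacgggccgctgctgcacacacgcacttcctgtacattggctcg
In Cox6a1 the run of 10 capitals is a pair of overlapping NRF1 matches, and the others are Sp1 and ETS matches. Sdhb has 3 Sp1 matches and 1 NRF1 match in the stretch shown.

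The motif of NRF1, a regulator of nuclear genes for respiration, was searched as GCATGCGC and stood in 10 of 74 subunit promoters (13.5%), against 2.71% of all 32851 promoters. The ETS motif CCGGAAG stood in 16 (21.6%) against 8.86%, and the YY1 motif AAGATGGC in 10 (13.5%) against 2.75%. The Sp1 motif GGGCGG was in 30 (40.5%) against 35.7%. YY1 matches were found in 7 promoters of complex I (Ndufa3, Ndufa9, Ndufb8, Ndufc1, Ndufs4, Ndufs6 and Ndufs7) and 3 of complex V (Atp5f1, Atp5j and Atp5j2). The 10 promoters with an NRF1 match were those of Ndufa11, Ndufa6, Ndufa8, Sdhb, Uqcr11, Uqcrc1, Cox6a1, Atp5g2, Atp5k and Atp5l, which span all 5 complexes. The letters TATAAA were in the 50 bases before the start of 0 of 74 subunit promoters and of 2.63% of all promoters. Subunit promoters had a median of 19 CpG sites and 57.5% GC, against 7 sites and 52.7% over all promoters. CpG counts over the full window were 7 for Cox7a1 and 20 for Cox7a2, 10 for Cox6b2 and 17 for Cox6b1, and 32 for Cox6a1. These matches describe letters in a window, and binding was not measured.

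Levels were compared between genes as CPM per kilobase of transcript. Of the 84 genes, 80 had enough reads to be tested, and the 4 others were isoforms known from other tissues. Cox4i2, the alternative isoform of subunit 4, had 2 reads in all 11 libraries together. Cox8b, a muscle-type isoform, also had 2 reads, and Cox7b2 and Cox8c, both known from testis, had 0. A count of 0 allows up to 3 reads, which is 0.0979 to 0.187 CPM depending on the library and covers counting error only.

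The catalytic beta subunit of ATP synthase, Atp5b, stood highest of all members, with a mean of 1332 CPM per kilobase and a range of 976 to 2159 over 11 libraries. Cox4i1, the regulatory subunit 4 of complex IV, had a mean of 1153 CPM per kilobase, Cox6a1 had 1110, Cox8a had 1049 and Uqcrq of complex III had 1024. The ranges of these 5 genes overlapped widely, so their order is not resolved. In complex I the highest was Ndufa6, a small accessory subunit, with a mean of 372 CPM per kilobase. Sdhd, a membrane anchor, had the highest level of complex II at 282 and Sdhc, its partner, the lowest at 115 CPM per kilobase. Uqcrb was lowest in complex III at 100.4, and Atp5s, named coupling factor B, lowest in complex V at 6.90. Ndufb2 was far below the rest of complex I at 3.39 CPM per kilobase, with 345 reads in all libraries. Of its transcript, 33.5% of the 50-base windows also occur in another gene, and reads that map to several places were not counted. In complex I, Ndufs3, Ndufb4, Ndufs5 and Ndufb6 shared more, at 39.7, 37, 35.6 and 34.1%. Their levels were 153, 43.9, 67.0 and 53.3 CPM per kilobase. The part of shared sequence in the low level of Ndufb2 was not tested. Shared windows exceeded 20% in 20 members and 50% in Atp5g2, Atp5l, Atp5g1, Cox7c, Atp5h and Atp5o, so the levels of these genes are uncertain, while 37 members shared none.

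**Figure D1:**
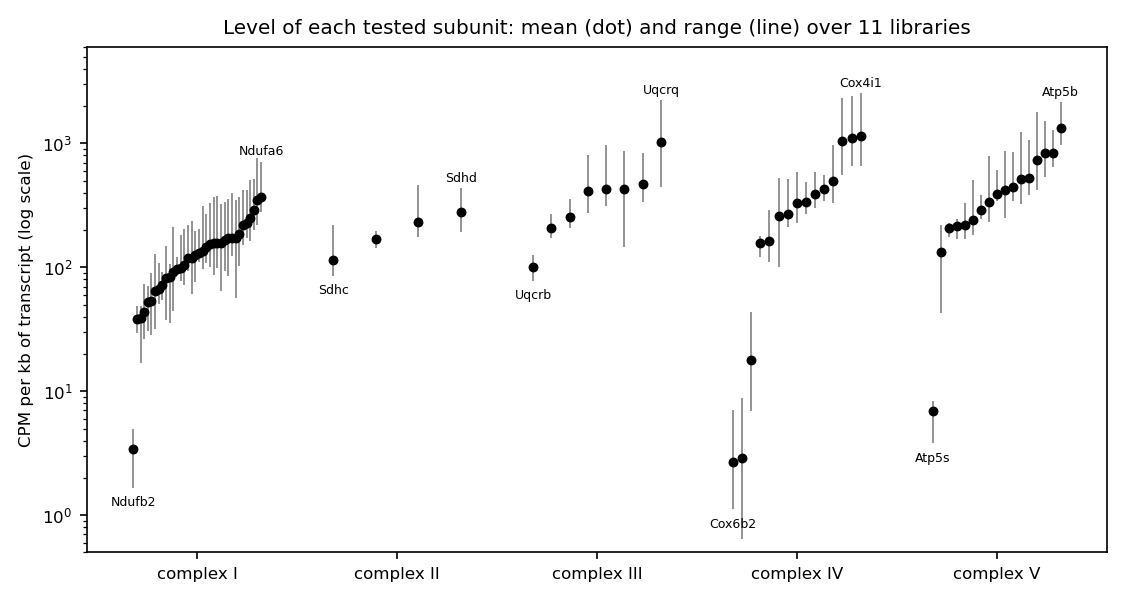
Mean level (points) and range over the 11 libraries (lines) of the 80 tested subunits, in CPM per kilobase of transcript on a log axis, by complex. Atp5b stood highest at a mean of 1332, and the lowest were Ndufb2 at 3.39, Cox6a2 at 2.88 and Cox6b2 at 2.66.

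Most subunits varied together from library to library. Passage 3 of mouse_283 had the highest levels: 74 of 80 members lay above their own 11-library mean of log2 CPM, with a median deviation of 0.97. Passage 4 of the same animal had 72 of 80 members above their mean, with a median deviation of 0.24. Passage 2 of mouse_283 had the lowest median deviation, -0.42, with 8 of 80 above their mean. Passage 13 of mouse_283 had only 4 above their mean, with a median deviation of -0.23. In the other 8 libraries the median deviation ran from -0.23 to 0.15, so the largest differences were between the 3 early libraries of 1 animal. After a correction of each library for GC content and length, the medians were 0.57 at passage 3, 0.044 at passage 4 and -0.10 at passage 2. Passage 11 of mouse_285 was then the lowest library, at -0.19.

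Summed over all members, the level was lowest at 15778 CPM in passage 2 of mouse_283 and highest at 38380 CPM in passage 3. The early mean was 24504 ± 8534 CPM (SD, n = 5) and the late mean 18648 ± 733 CPM (SD, n = 6). The late libraries were therefore close to each other, and the early range enclosed the late one.

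**Figure D2:**
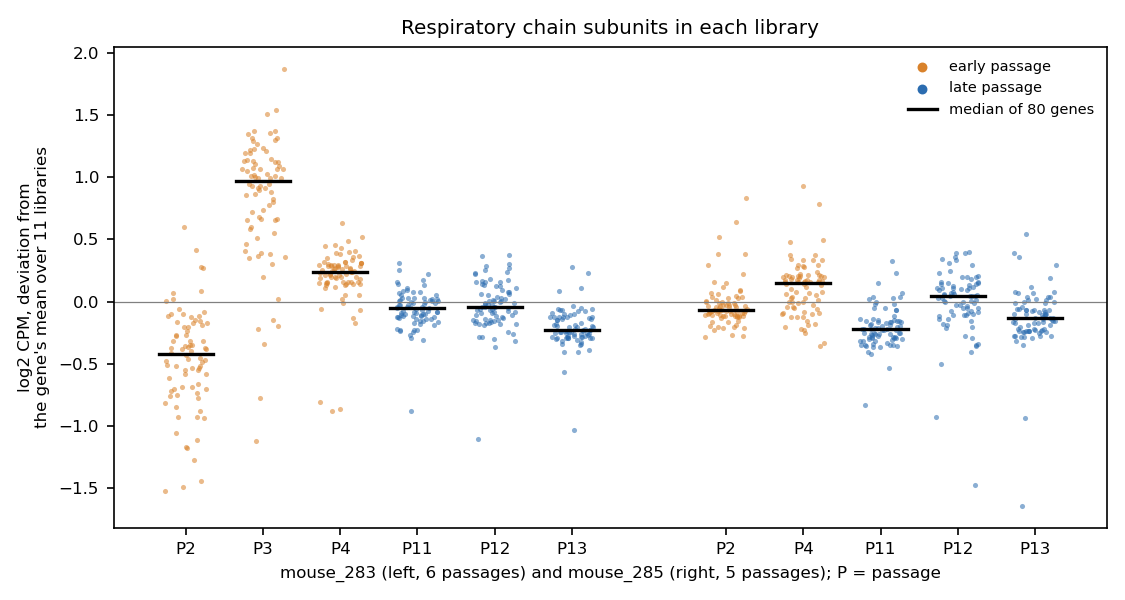
Deviation of each of the 80 tested subunits from its own mean, in log2 CPM, for each library (early in orange, late in blue), with the median as a black line. Passage 3 of mouse_283 has a median of 0.97 and passage 2 of the same animal -0.42, while the late libraries lie between -0.23 and 0.043.

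The likeness of the members was described by Pearson's r of log2 CPM with the per-library median of the other members over 11 libraries. The median r was 0.93 and 60 of 80 members (75%) were above 0.8, against a median of -0.048 and 15.8% above 0.8 for the other 14092 genes. With GC content and length corrected, the median was 0.71 and 26 members (32.5%) were above 0.8, against 5.55% of other genes. With mouse_283 passages 3 and 4 removed, the median was 0.77, and 39 members were above 0.8. Other genes were not measured in that setting, so this count has no background beside it. These coefficients share libraries and base composition, and no p is given. The members least like the rest, singled out after their values were seen, were Ndufs1 (r = -0.85), Ndufb2 (-0.74), Atp5f1 (-0.56), Sdha (-0.43) and Atp5s (-0.43). After the GC and length correction their r was -0.75, -0.69, -0.66, 0.45 and 0.74, in the same order. Atp5j (-0.50) and Cox6c (-0.33) were then also negative.

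The comparison of late with early passages addresses the change with time in culture. Of 80 subunits, 1 was lower in late passages and 0 were higher by edgeR's quasi-likelihood test, with Benjamini-Hochberg adjustment over 14172 genes and the animal in the model. Over all genes, 2.34% were called lower and 0.706% higher, so 1 of 80 is near the background. An unadjusted edgeR p under 0.05 was reached by 14 of 80 members, beside 3346 of all 14172 genes, which is a larger share. DESeq2 called 3 members lower and 0 higher, against 5.98% of all genes called lower. The fitted log2 change was negative for 68 members and positive for 12, with a median of -0.31, while all genes had a median of -0.021. That median was -0.042 without passage 3 of mouse_283 and 0.059 without passages 3 and 4, when 50 members were positive and 30 negative. With GC content and length corrected it was -0.23, with 63 members negative. Total-count scaling moved the median of all genes to 0.11 and that of the members to -0.13, with 56 negative. Leaving out passage 2 of mouse_283, the early library with the lowest levels, gave 27 members lower and 1 higher by edgeR, beside 16.2% of all genes lower and 18.5% higher. Of the 27, 12 were in complex I, 3 in II, 2 in III, 5 in IV and 5 in V, and the 1 higher was Ndufs1 at 0.70. With all libraries kept, the same signs were common in other abundant gene families: 69 of 80 cytosolic ribosomal protein genes and 65 of 76 mitochondrial ones were also negative. When passages 3 and 4 of mouse_283 were left out, 77 of 80 and 63 of 76 of those were positive.

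Every late library was lower than every early one for 2 of 80 members, Cox7a1 and Uqcrc2, and higher for 0, against 3.51% and 2.21% of all tested genes. Within mouse_283 the same was true of 2 members in the lower direction, Cox7a1 and Uqcrc2, against 9.46% of all genes. In mouse_285, 19 of 80 members were lower in every late library, against 18.3% of all genes.

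Among complex I subunits, 30 of 36 had negative and 6 positive changes, with a median of -0.31, and none passed edgeR's test. Values after ± are SDs over 5 early or 6 late libraries. Ndufv1, which carries the NADH site, had 164, 623 and 303 CPM at passages 2, 3 and 4 of mouse_283 and 228 and 335 CPM at passages 2 and 4 of mouse_285. Its late libraries ran from 187 to 214 CPM with a median of 199, so passage 2 of mouse_283 lay below the late libraries and the other early libraries above them. The change was -0.68 on the log2 scale (SE 0.27, edgeR adjusted p = 0.164). Ndufa11, an accessory membrane subunit, gave 117 ± 58.6 CPM early and 75.1 ± 5.17 CPM late (log2 change -0.61, SE 0.25, adjusted p = 0.178 by edgeR), and Ndufa6 gave 259.6 ± 96.4 CPM early and 186 ± 12.1 CPM late (log2 change -0.47, SE 0.21, adjusted p = 0.201). These 3 genes had their highest value at passage 3 of mouse_283. In the fit of 9 libraries, without passages 3 and 4 of that animal, the changes were -0.22 for Ndufv1, -0.16 for Ndufa11 and -0.16 for Ndufa6.

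Ndufs1, the large iron-sulfur subunit that takes electrons from Ndufv1, had the opposite pattern. It measured 127, 43.7 and 51.4 CPM at passages 2, 3 and 4 of mouse_283 and 124 and 75.3 CPM at passages 2 and 4 of mouse_285. The late libraries held 104 to 122 CPM with a median of 114, so passages 3 and 4 of mouse_283 were the lowest of all, where most subunits were highest. The change was 0.42 (SE 0.26, edgeR adjusted p = 0.308), and 0.064 in the fit of 9 libraries. Its transcript has a GC content of 46.6%, against 56.7% for Ndufv1. The complex I members of lower GC content were Ndufv2 (42.0%), Ndufs4 (43.1%), Ndufb3 (45.0%) and Ndufab1 (45.3%). Their r with the other members was 0.90, 0.51, 0.78 and 0.90. After the GC and length correction the change of Ndufs1 was 0.23 (SE 0.13, edgeR adjusted p = 0.286), and its r with the other members was -0.75. The part of base composition in its pattern was not tested. Over the 80 members, GC content and the log2 change had r = -0.50 (Spearman's rho -0.56), and over 13709 genes r was -0.43. These are relations across genes, which are not independent replicates. Ndufa1, a small accessory subunit named after its value was seen, was the member called higher without passages 3 and 4 of mouse_283, with a change of 0.79 (SE 0.19, edgeR adjusted p = 0.0271). In that fit 1.37% of all genes were called higher, so 1 of 80 is near the background. With all libraries Ndufa1 had a log2 change of 0.32 (SE 0.25, edgeR adjusted p = 0.414).

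The 4 subunits of succinate dehydrogenase were all negative, with a median of -0.42, and none passed the test. Sdhb, the iron-sulfur subunit, had 214, 529 and 293 CPM at passages 2, 3 and 4 of mouse_283 and 259.7 and 286 CPM at passages 2 and 4 of mouse_285. Late values ran from 201 to 231 CPM with a median of 220.5. Only passage 2 of mouse_283 among the early libraries lay within that range, and the change was -0.51 (SE 0.20, edgeR adjusted p = 0.167). The membrane anchors Sdhc and Sdhd gave 441 ± 153 CPM early and 299 ± 18.7 CPM late, and 391 ± 107 CPM early and 309.6 ± 9.59 CPM late, respectively (edgeR adjusted p = 0.146 and 0.267). Sdha, the flavoprotein that oxidises succinate, had the value nearest to 0, with 488 ± 59.1 CPM early and 485 ± 57.1 CPM late (log2 change -0.0079, SE 0.15, adjusted p = 0.976), and its sign turned under total-count scaling, at 0.11. When passages 3 and 4 of mouse_283 were left out, the 4 genes stayed negative, at -0.21 for Sdhb, -0.23 for Sdhc, -0.056 for Sdhd and -0.047 for Sdha.

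In complex III, 7 of 8 subunits were negative, with a median of -0.26, and none passed. Uqcrc1, a core protein, measured 547, 1603 and 827 CPM at passages 2, 3 and 4 of mouse_283 and 612 and 935 CPM at passages 2 and 4 of mouse_285. The late libraries held 519.7 to 586 CPM with a median of 547. Passage 2 of mouse_283 fell inside the late range and passage 3 lay far above all other libraries, and the change was -0.70 (SE 0.24, edgeR adjusted p = 0.13). Uqcrc2, the other core protein, varied less, at 434 ± 49.9 CPM early and 362 ± 20.3 CPM late. Its lowest early library had 390.4 CPM and its highest late one 380.4 CPM, so the groups did not overlap, but the change of -0.25 (SE 0.13) had an edgeR adjusted p of 0.259. Uqcrfs1, the Rieske iron-sulfur protein, gave 391 ± 73.4 CPM early and 312 ± 7.69 CPM late (log2 change -0.32, SE 0.15, adjusted p = 0.218). Uqcrb, a small subunit near the coenzyme Q site, was the 1 member of the complex with a positive change, at 48.2 ± 5.04 CPM early and 58.3 ± 7.69 CPM late (log2 change 0.27, SE 0.15, adjusted p = 0.274 by edgeR). The fit of 9 libraries gave -0.32 for Uqcrc1, -0.15 for Uqcrc2, -0.14 for Uqcrfs1 and 0.31 for Uqcrb.

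In ATP synthase, 13 of 17 members were negative and 4 positive, with a median of -0.32, and none passed. Atp5b had 2225, 4136 and 3383 CPM at passages 2, 3 and 4 of mouse_283 and 2403 and 3206 CPM at passages 2 and 4 of mouse_285. Late libraries ran from 1870.0 to 2365 CPM with a median of 2071. Passage 2 of mouse_283 lay inside the late range and passage 2 of mouse_285 just above it, while passages 3 and 4 were higher, and the change was -0.52 (SE 0.19, edgeR adjusted p = 0.138). The alpha subunit Atp5a1, its partner in the catalytic ring, gave 2462 ± 553 CPM early and 1753 ± 151 CPM late (log2 change -0.48, SE 0.18, adjusted p = 0.145). Atp5d and Atp5o, the delta subunit and the stalk protein OSCP, had log2 changes of -0.57 and -0.53 (edgeR adjusted p = 0.237 and 0.236). The rotor's gamma subunit Atp5c1 had -0.28 (edgeR adjusted p = 0.289). The fit of 9 libraries gave -0.28 for Atp5b, -0.26 for Atp5a1, -0.059 for Atp5d, -0.031 for Atp5o and -0.040 for Atp5c1. These values missed the threshold, which does not show that the levels were equal.

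**Figure D3:**
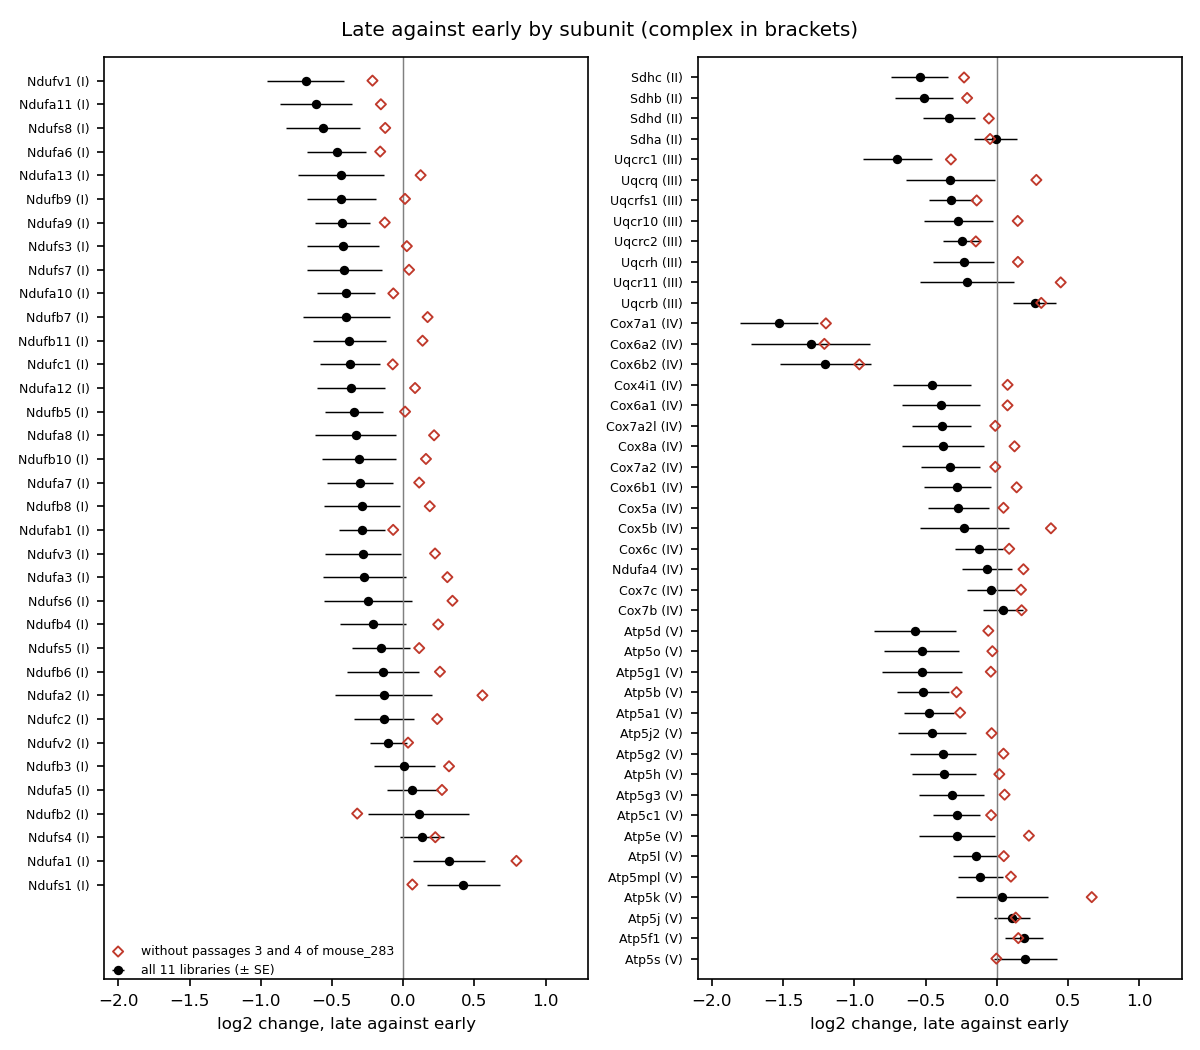
Late minus early log2 change ± SE of tested subunits, by complex, from all 11 libraries (black) and without passages 3 and 4 of mouse_283 (red diamonds). The median over all 80 tested is -0.31 for black and 0.059 for red, and Cox7a1 lies at -1.53 and -1.20.

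As sums over a complex, the late minus early difference was -0.38 log2 units in complex I, -0.32 in II, -0.40 in III, -0.34 in IV and -0.44 in V. Leaving out passages 3 and 4 of mouse_283, the same sums differed by -0.012, -0.14, -0.073, 0.057 and -0.16. No test was made of these sums. The early sum of complex V was 10167 ± 3062 CPM (SD, n = 5) and the late sum 7503 ± 328 CPM (SD, n = 6).

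Complex IV held the 1 subunit that passed the test. Of its 15 tested members 14 were negative, with a median of -0.33, which became 0.076 without passages 3 and 4 of mouse_283. Cox7a1, the isoform of subunit 7a known from heart and skeletal muscle, fell in late passages. Its early values were 7.20, 17.0 and 6.97 CPM at passages 2, 3 and 4 of mouse_283 and 10.6 and 11.4 CPM at passages 2 and 4 of mouse_285. Its late values were 3.18, 2.71 and 2.85 CPM in mouse_283 and 5.28, 4.62 and 5.03 CPM in mouse_285. Every late library was below every early one, and mouse_285 lay above mouse_283 at passages 2, 4, 11, 12 and 13. The means were 10.6 ± 4.09 CPM (SD, n = 5) and 3.94 ± 1.16 CPM (SD, n = 6), and the log2 change was -1.53 (SE 0.27, edgeR adjusted p = 0.0113). These values rest on 55 to 316 reads per library. Without passages 3 and 4 of mouse_283 the change was -1.20 (edgeR adjusted p = 0.00221), and with GC content and length corrected it was -1.34 (edgeR adjusted p = 0.00373). Its transcript shared no 50-base window with another gene.

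Cox7a2 supplies the same position in most tissues, with a mean of 267 CPM per kilobase against 17.8 for Cox7a1. Cox7a1 made up 8.30 ± 1.95% (SD, n = 5) of the length-corrected sum of Cox7a1 and Cox7a2 in early libraries and 4.11 ± 1.31% (SD, n = 6) in late ones. The lowest early share was 5.79% and the highest late share 5.70%, so the groups did not overlap. Cox7a2 itself gave 201 ± 79.1 CPM early and 156 ± 13.6 CPM late (log2 change -0.33, SE 0.21, adjusted p = 0.322 by edgeR). Cox7a2l, a relative that helps complexes III and IV to associate, gave 414 ± 149.9 CPM early and 309 ± 21.0 CPM late (log2 change -0.39, SE 0.21, adjusted p = 0.259 by edgeR). In the fit of 9 libraries these were at -0.010 and -0.011.

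Markers of striated muscle were looked at beside Cox7a1, since muscle is where it is best known. Of 7 such markers, 4 stayed under 0.5 CPM in every library: Ckm reached 0.207, Actc1 0.113 and Mb 0.421 CPM, and Tnnt3 had no read. The list summed to between 50.0 and 233 CPM in early libraries and 66.0 and 152 CPM in late ones, almost all of it Acta1 at 48.5 to 231 CPM. For brown fat, another known site, Ucp1 reached 0.0936 CPM, Adipoq had no read and the 3 markers summed to 0.793 to 2.10 CPM early and 0.496 to 2.74 CPM late. The early and late ranges overlapped in both lists. The enterocyte and enteroendocrine sums given above, and summed tuft cell markers at 15.0 to 18.8 CPM early and 3.98 to 7.44 CPM late, did separate the stages. Taken singly, some markers of each list overlapped between the stages, among tuft markers Dclk1. The part of these cell types in the change of Cox7a1 was not tested.

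A pair of other low isoforms had negative changes that missed the threshold. Cox6a2, the muscle-type isoform of subunit 6a, had 1.59, 5.99 and 1.59 CPM at passages 2, 3 and 4 of mouse_283 and 2.49 and 2.76 CPM at passages 2 and 4 of mouse_285. Late libraries held 0.434 to 1.97 CPM with a median of 1.22, which overlaps the early values at passages 2 and 4 of mouse_283. Its change was -1.31 (SE 0.42, edgeR adjusted p = 0.109; DESeq2 adjusted p = 0.0349). Cox6b2 had 1.34, 3.88 and 2.02 CPM at passages 2, 3 and 4 of mouse_283 and 1.87 and 1.63 CPM at passages 2 and 4 of mouse_285. Its late libraries held 0.620 to 1.40 CPM with a median of 0.749, with overlap at passage 2 of mouse_283, and its change was -1.20 (SE 0.32, edgeR adjusted p = 0.0638; DESeq2 adjusted p = 0.0136). With passages 3 and 4 of mouse_283 left out, Cox6a2 was at -1.21 and Cox6b2 at -0.96 (edgeR adjusted p = 0.147 and 0.17). These genes had 442 and 337 reads in all 11 libraries. Of the length-corrected pair, Cox6a2 was 0.324 ± 0.0700% early and 0.182 ± 0.0950% late, and Cox6b2 0.696 ± 0.0850% and 0.363 ± 0.125% (SD, n = 5 and 6). Germ cell markers, looked at beside the testis-type isoform, summed to 0.180 to 0.593 CPM early and 0.187 to 1.26 CPM late, with 4 of 5 under 0.5 CPM everywhere.

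The abundant isoforms did not pass the test. Cox4i1 gave 1019 ± 528 CPM early and 726 ± 64.0 CPM late (log2 change -0.45, SE 0.27, adjusted p = 0.302 by edgeR), Cox6a1 735 ± 386 CPM early and 549.5 ± 65.3 CPM late (adjusted p = 0.364) and Cox6b1 344 ± 152 CPM early and 277 ± 29.4 CPM late (adjusted p = 0.456). Cox8a, the only isoform of subunit 8 with more than 2 reads, gave 667 ± 364 CPM early and 502 ± 63.5 CPM late (edgeR adjusted p = 0.401). Cox5a and Cox5b, which have no isoform partner, had log2 changes of -0.27 and -0.23 (edgeR adjusted p = 0.42 and 0.64). Cox7b and Ndufa4 had changes near 0, at 0.046 and -0.069 (edgeR adjusted p = 0.846 and 0.816). The changes of Cox4i1, Cox6a1, Cox6b1, Cox8a, Cox5a, Cox5b and Ndufa4 turned positive, at 0.047 to 0.38, once passages 3 and 4 of mouse_283 were left out, and Cox7b was then at 0.17.

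**Figure D4:**
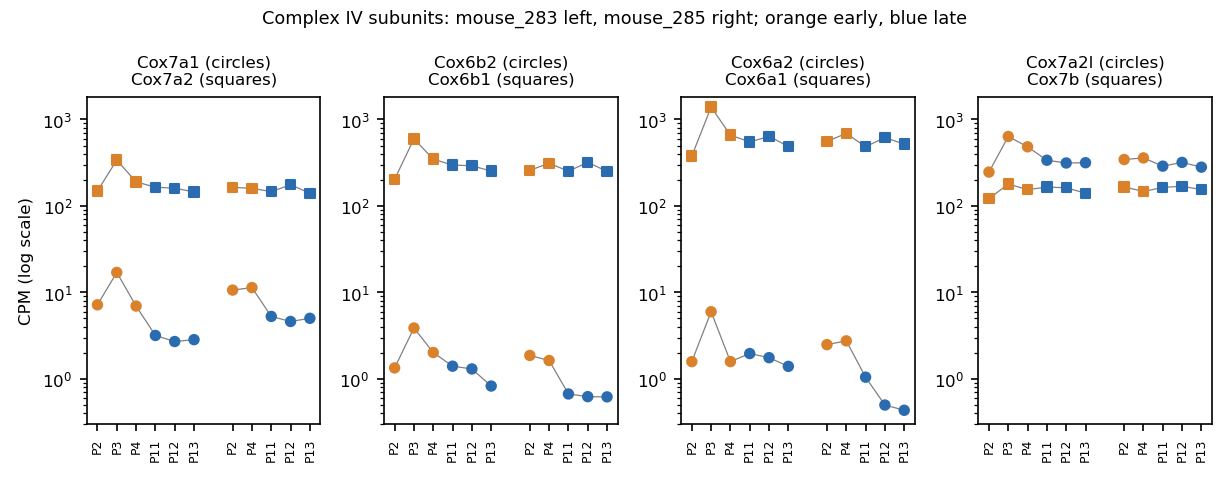
Levels of paired complex IV genes in each library, in CPM on a log axis, for Cox7a1 and Cox7a2, Cox6b2 and Cox6b1, Cox6a2 and Cox6a1, and Cox7a2l and Cox7b. Cox7a1 lies between 6.97 and 17.0 CPM in the early libraries and between 2.71 and 5.28 CPM in the late ones.

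Between the animals' cultures, 0 of 80 members differed by edgeR (mouse_285 against mouse_283, stage in the model), with 0 at an unadjusted p under 0.05 and 0 by DESeq2. Of all 14172 genes, 730 had an unadjusted p under 0.05 by edgeR, and 0% were called higher and 0.0776% lower. The median member change was -0.14. With 1 animal each and no age tied to either, no effect of age can be read from this comparison.

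The stage effect was also compared between the animals. Within mouse_283, 1 member, Cox7a1, was called lower by edgeR and 0 higher, against 1.09% and 0.332% of all genes, and the member median was -0.47 with 70 of 80 negative. In mouse_285 the median was -0.11 with 60 of 80 negative. For Cox7a1 the changes were -1.83 (edgeR adjusted p = 0.0307) and -1.15 (edgeR adjusted p = 0.651). The difference between the animals, tested as an interaction, was called for 0 of 80 members by edgeR, with 0 at an unadjusted p under 0.05 and 0 by DESeq2. Of all 14172 genes, 302 had an unadjusted p under 0.05 by edgeR, and 0% were called in either direction. For Cox7a1 the interaction was 0.69 (SE 0.53, edgeR adjusted p = 0.99). Without passage 2 of mouse_283, 2 members passed that test, Ndufs1 at -1.0 (SE 0.29, edgeR adjusted p = 0.0322) and Ndufb4 at 0.81 (SE 0.26, edgeR adjusted p = 0.0481), beside 16.5% of all genes.

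The partners of these subunits in the same pathway were read from lists chosen by function. Of 13 subunits encoded in mitochondrial DNA, 1 passed as higher in late passages and 0 as lower, all 13 changes were positive, and the median was 0.89, where that of the nuclear-encoded subunits was -0.31. The 1 was mt-Co2, a catalytic-core subunit of complex IV, at 19.0 ± 7.75 CPM early and 43.3 ± 14.9 CPM late (log2 change 1.21, SE 0.30, adjusted p = 0.0478 by edgeR). Mitochondrially encoded subunits of complex IV summed to means of 18887 CPM early and 26372 CPM late, of which mt-Co2 was a small part. Reads that map to several places were not counted, so the level of mt-Co2 is uncertain. Their part in its low level was not tested. Without passages 3 and 4 of mouse_283 the 13 changes stayed positive with a median of 0.51, the nuclear-encoded median was positive too at 0.059, and mt-Co2 was at 0.92 (SE 0.28, edgeR adjusted p = 0.0849). With GC content and length corrected, the mitochondrially encoded median was 0.40 with 12 of 13 positive, and mt-Co2 was at 0.62 (SE 0.16, edgeR adjusted p = 0.0383). In those 2 libraries the median deviation of the mitochondrially encoded genes was -1.14 and -1.31.

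Assembly factors, which build the complexes, had 0 of 48 called in either direction, with a median of -0.064. The smallest p among them belonged to Ndufaf2, at log2 change 0.53, SE 0.19, adjusted p = 0.143 by edgeR, and Ndufaf4 and Lyrm7, at 0.64 and 0.57. In the fit of 9 libraries they were at 0.58, 0.32 and 0.31, and after the GC and length correction at 0.26, 0.079 and 0.13. Of 20 genes for electron carriers and coenzyme Q, 0 were called, and Coq8a, a kinase-like protein needed for coenzyme Q synthesis, came nearest with 120.4 ± 44.9 CPM early and 64.5 ± 9.31 CPM late (log2 change -0.91, SE 0.24, adjusted p = 0.0624 by edgeR). It passed after the GC and length correction, at -0.89 (SE 0.24, edgeR adjusted p = 0.0393), and was at -0.51 (SE 0.17, edgeR adjusted p = 0.116) in the fit of 9 libraries. Coq3, a methyltransferase of the same pathway that is named after its value was seen, passed as higher in that fit at 0.67 (SE 0.17, edgeR adjusted p = 0.038). Over all genes, 4.42% were called lower and 3.17% higher after the correction, and 3.40% and 1.37% in the fit of 9 libraries. Cycs, the somatic cytochrome c, gave 144 ± 17.4 CPM early and 143 ± 7.31 CPM late (edgeR adjusted p = 0.983), while Cyc1, the cytochrome c1 of complex III, gave 742 ± 362 CPM early and 467 ± 17.0 CPM late (edgeR adjusted p = 0.168). Their log2 changes in the fit of 9 libraries were 0.036 and -0.21, and after the correction -0.66 and -0.27. In the citrate cycle 0 of 16 were called, with Ogdh, a subunit of oxoglutarate dehydrogenase, at -0.49 (edgeR adjusted p = 0.0973) and Idh3g, of isocitrate dehydrogenase, at -0.59 (edgeR adjusted p = 0.115), which became -0.41 and -0.30 in the fit of 9 libraries. After the correction 2 of 16 passed as lower, among them Cs, citrate synthase, at -0.44 (SE 0.12, edgeR adjusted p = 0.0392), named after its value was seen. Among 13 carriers and channels 0 were called, 11 were negative, and Slc25a3, the phosphate carrier that feeds ATP synthase, was at -0.41 (edgeR adjusted p = 0.126), or -0.29 in the fit of 9 libraries and -0.19 after the correction.

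Regulators of mitochondrial gene expression had 0 of 18 called, with 10 positive, 8 negative and a median of 0.26. Ppargc1a, the coactivator PGC-1 alpha, had 13.5 and 14.5 CPM at passage 2 of mouse_283 and mouse_285, and 2.59, 1.84 and 6.38 CPM in the other early libraries. Late libraries held 1.55 to 6.50 CPM, so only the passage 2 cultures stood clear of all others. Its change over all libraries was -1.22 (SE 0.48, edgeR adjusted p = 0.162), and -1.71 (SE 0.34, edgeR adjusted p = 0.0106) in the fit that left out passages 3 and 4 of mouse_283. With all libraries kept and GC content and length corrected, it also passed, at -1.52 (SE 0.26, edgeR adjusted p = 0.00415). Yy1, whose motif was searched above and which is named after its value was seen, passed as higher after that correction, at 0.57 (SE 0.16, edgeR adjusted p = 0.0494). In passage 2 the median deviation of the subunits was -0.42 in mouse_283, the lowest library, and -0.070 in mouse_285. After the GC and length correction these were -0.10 and 0.018, and passage 11 of mouse_285 was lowest at -0.19. A link between Ppargc1a and the subunits was not tested. Nrf1, whose motif was searched above, gave 47.6 ± 6.03 CPM early and 43.7 ± 3.40 CPM late (edgeR adjusted p = 0.638). Tfam, which packages and transcribes mitochondrial DNA, gave 53.0 ± 20.2 CPM early and 77.6 ± 4.88 CPM late (log2 change 0.54, SE 0.22, adjusted p = 0.174 by edgeR). Its change was 0.24 in the fit of 9 libraries and 0.15 after the correction.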

How the data were processed

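RNA-seq gene counts of 11 libraries were used, 1 table per library. Trimmomatic, STAR and the mm9 build are named in the submitters' processing notes. Tool versions and annotation are not given in the sources used here. The authors deposited unnormalised whole-number counts in STAR's gene table. The unstranded column was used, since first-strand counts made up 49.99 to 50.16% of both strands. Only uniquely mapped reads are counted, and multimapping reads were 5.92 to 8.79%. Rows that name no gene were left out (no feature 3.77 to 11.7%, ambiguous 3.11 to 4.03%). Passages follow sample titles. No libraries were duplicates.

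Symbols were matched by Ensembl ID (32620 of 37310). Counts were tested with edgeR 4.0.16 in R 4.3.3 (limma 3.58.1): TMM, filterByExpr (14172 genes), quasi-likelihood F test, two-sided, Benjamini-Hochberg over all genes, threshold 0.05, animal and stage in the model. The animal term is the pairing: passages of an animal come from 1 culture line. SE is the log2 change divided by the square root of F, and log2 CPM used a prior count of 2. The script was tested on simulated data. DESeq2 1.42.0, other scalings and filters, splines on GC content and length (5 degrees of freedom), and leaving out libraries were alternatives.

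Named were the 4 members with the smallest p per complex, those past the threshold, isoform pairs, catalytic subunits, the highest and lowest per length, and up to 3 genes per list, with Cycs, Cyc1, Ppargc1a, Nrf1 and Tfam. The members, lists and libraries to leave out were chosen with earlier results of these data known. Lengths, GC content and shared windows came from GENCODE transcripts of the reference, and promoters from RefSeq GRCm38.p6, which is not the build of the counts. Some genes that the naming rule covers are not reported here, though counts and medians include them.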

Additional observations from a re-analysis of the deposited data

Results flagged for a closer look

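In all, 72 groups of 5 or 6 libraries were examined, early and late, for named members and for the summed level of each complex. Of these, 5 had 1 library far from the rest, and chance flags about 1 in 20 groups. The groups share libraries and the members move together, so the flags are not independent. In all 5 it was passage 3 of mouse_283, the highest of the 5 early libraries. It held 219 CPM of Ndufa11, 529 CPM of Sdhb, 339 CPM of Cox7a2, 3.88 CPM of Cox6b2 and 5.99 CPM of Cox6a2. The gap to the next library was 0.735, 0.75, 0.786, 0.733 and 0.734 of the group's range. The same library had the steepest trend of expression with GC content, 1.02 log2 units per 10 percentage points, and the part of that trend in these values was not tested.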

How the results depend on the processing

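Cox7a1 passed as lower in all 21 alternatives run, with log2 changes of -1.62 to -1.20 and adjusted p of 1.02919e-05 to 0.0416 (edgeR, or DESeq2 for the lowest). Among these, leaving Atp5s out of the members kept the main fit unchanged, so it is no separate check of Cox7a1. The count of members lower was 1 under other scalings, the stricter filter, the GC and length correction and with no replicate block, 3 under DESeq2, and 5 with no filter on low counts. The 5 were Cox7a1, Cox6b2, Cox6a2, Ndufv1 and Uqcrc1, beside 3.26% of all genes lower and 4.48% higher in that setting. Without passages 3 and 4 of mouse_283, 1 member was higher and the median change was 0.059. With each library left out in turn, members lower ranged from 1 to 27, higher from 0 to 1, and members with an interaction from 0 to 2; the 27, the 1 higher and the 2 all came without passage 2 of mouse_283. The median then ranged from -0.46 to -0.042. No other setting in these comparisons moved a count of calls by over 1.5 times, and dropping the animal from the model (no replicate block) left 1 lower and 0 higher with a median of -0.33.

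Total-count scaling moved the median of all genes from -0.021 to 0.11 and that of members to -0.13, and turned Sdha to 0.11 and Ndufa4 to 0.098. With no filter Sdha was at 0.026, and with the GC and length correction Uqcrb was at -0.31 and Cox7b at -0.50. Without passages 3 and 4 of mouse_283, Cox4i1 was at 0.076, Cox6a1 at 0.075, Cox6b1 at 0.14, Cox8a at 0.12, Cox5a at 0.047, Cox5b at 0.38 and Ndufa4 at 0.19. Leaving out single libraries gave Sdha 0.0027, 0.019, 0.032, 0.053 and 0.075 where it turned, Cox7b -0.023, Cox6b1 0.0011, Cox5b 0.12 and Ndufa4 0.10. The cause was not tested. Depth limits the isoforms with few reads, since 3 counts are 0.0979 to 0.187 CPM.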
